A study of Caenorhabditis elegans with 17 samples.

Results

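Knockdown of nol-56 by feeding RNAi was compared with the empty vector L4440 in total small RNA of eri-1(mg366) animals of Caenorhabditis elegans, with 1 library for each condition. The genes described are those beyond the rRNA genes and nol-56 itself with 100 or more reads, sense and antisense together, in either library. They number 11112 of the 45506 genes counted. Because the transcripts of some genes fall in more than 1 RNA class, they give 11185 gene and class entries, of which 9061 reached 100 sense reads, 4204 reached 100 antisense reads and 2656 reached both. A further 576 reached 100 only with both strands added and are not described by strand. At the limit itself, 31 entries had a higher count of 100 reads and 33 lay just outside it at 99. The series holds 17 libraries, and 2 further knockdown libraries of the same design, fib-1 RNAi and mtr-4 RNAi, are set beside these where they differ.

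By the labels, all 4 libraries came from young adults, whereas the methods give L3 animals, and the stage was not settled. All 4 were grown at 20 °C and carried eri-1(mg366), L4440 included. ERI-1 is an exonuclease whose loss makes animals more sensitive to RNAi and removes some endogenous siRNAs, so neither library stands for a wild-type animal. Whole animals were used, so fewer cells of a type and less RNA per cell cannot be told apart in any value below. With 1 library per condition no spread between replicates could be measured, no p-value is given, and every ratio compares the reads of 2 libraries rather than 2 conditions.

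NOL-56 is the ortholog of human NOP56, a core protein of the box C/D snoRNP, the particle in which snoRNAs guide the methylation of rRNA in the nucleolus. Box C/D particles also hold NOL-58 and the methyltransferase FIB-1 (fibrillarin), whereas box H/ACA particles guide pseudouridylation. Many snoRNAs lie in introns of protein-coding genes and are released from the spliced intron. Antisense reads on protein-coding genes, transposons and lincRNAs are mostly siRNAs made by RNA-dependent RNA polymerases and carried by Argonaute proteins, whereas miRNAs, piRNAs and fragments of structural RNAs map to the sense strand.

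Levels were given in RPM, reads per 1000000 reads counted on transcripts, leaving out sense rRNA and sense protein-coding reads. That number was 5630440 in nol-56 RNAi, 4651899 in fib-1 RNAi, 5956783 in mtr-4 RNAi and 3799446 in L4440. Counted reads were 17155685 in nol-56 RNAi and 12154965 in L4440, of which sense rRNA held 37.3% and 31.5%. Reads antisense to nol-56 (chromosome V, 10350466 to 10352978, minus strand) were 338593 in nol-56 RNAi and 218 in L4440, and sense reads on it were 85289 in nol-56 RNAi and 2487 in L4440. Both strands can hold reads of the double-stranded trigger, so they check the label and say nothing of the mRNA. A ratio is the RPM of nol-56 RNAi over that of L4440, given with its exact 95% interval, which covers counting error only since the reads carry no molecular identifiers. A gene was counted as higher at a ratio of 2 or more and lower at 0.5 or less, with a library at 0 reads set to 3 reads. No antisense entry and 28 sense entries were at 0 reads in L4440, and 21 sense entries were at 0 in nol-56 RNAi.

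Among sense reads, 1692 of 9061 entries (18.7%) were at least 2-fold higher and 3858 (42.6%) at least 2-fold lower, and the median log2 ratio was -0.74. Among antisense reads, 125 of 4204 (2.97%) were at least 2-fold higher and 3613 (85.9%) at least 2-fold lower, with a median of -2.33. These shares are the background for every class below. The split depended on the denominator. Per sense miRNA read, which lowered every log2 ratio by 0.80, 821 sense entries were higher and 5614 lower. With size factors from the median ratio of all entries, which raised every log2 ratio by 1.23, 3511 sense entries were higher and 1023 lower, and 339 antisense entries were higher and 2250 lower. The 3 other denominators moved log2 ratios by 0.07 to 0.09.

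The classes moved in opposite directions. Sense reads on miRNA genes made up 21.5% of the normalization number in nol-56 RNAi and 12.3% in L4440, a ratio of 1.75 (1.74 to 1.75). Sense snoRNA reads held 5.67% in nol-56 RNAi and 2.51% in L4440, a ratio of 2.26 (2.24 to 2.28), sense tRNA reads 9.48% and 3.84%, a ratio of 2.47 (2.45 to 2.48), and sense snRNA reads 6.43% and 2.83%, a ratio of 2.27 (2.26 to 2.29). Sense reads on ncRNA genes, a general class that here includes the signal recognition particle RNA genes, gave 8.96% in nol-56 RNAi and 4.37% in L4440, a ratio of 2.05 (2.04 to 2.06). These 5 classes were therefore higher in nol-56 RNAi, as shares of the normalization number, beyond counting error. That number also counts antisense protein-coding reads, which held 13.9% of it in nol-56 RNAi and 48.2% in L4440. A lower share of 1 class raises the shares of the others, so the class ratios are not independent. No denominator that left out antisense protein-coding reads alone was tried. How much of the 5 ratios, that of miRNA included, the lower share of these reads makes up was therefore not tested.

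The siRNA classes lay on the other side. Antisense protein-coding reads held 13.9% of the normalization number in nol-56 RNAi and 48.2% in L4440, a ratio of 0.289 (0.288 to 0.290). Antisense transposon reads had a ratio of 0.405 (0.401 to 0.408) and antisense lincRNA reads one of 0.211 (0.207 to 0.215). Sense piRNA reads, the 21U-RNAs that load the Argonaute PRG-1, held 2.04% in nol-56 RNAi and 3.60% in L4440, a ratio of 0.566 (0.562 to 0.571), which became 1.33 with size factors. Mitochondrial reads differed little, with a ratio of 1.10 (1.10 to 1.11) that became 0.632 per sense miRNA read, as did spliced leader reads, at 0.899 (0.877 to 0.920), which became 2.10 with size factors.

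**Figure D1:**
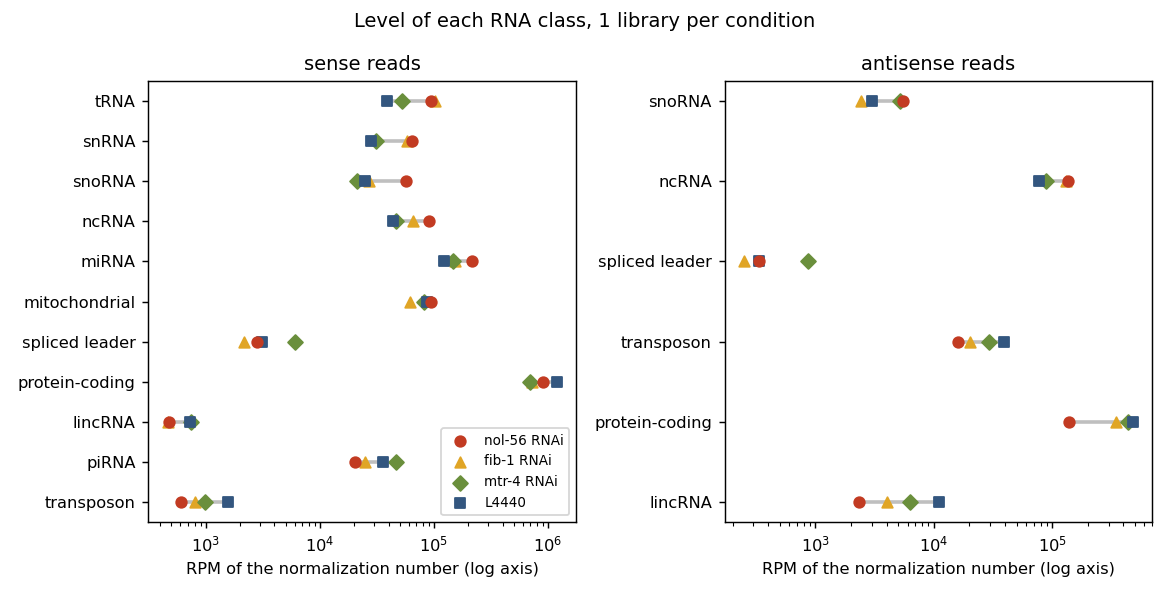
Level of each RNA class with 1000 or more reads in nol-56 RNAi or L4440, in RPM of the normalization number on a log axis, for sense (left) and antisense reads (right), with 1 marker per library and a grey bar joining nol-56 RNAi and L4440. Sense miRNA, snoRNA, tRNA, snRNA and ncRNA lie to the right in nol-56 RNAi (red circles), and antisense protein-coding, transposon and lincRNA reads to the left, at ratios of 0.289, 0.405 and 0.211.

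**Figure D2:**
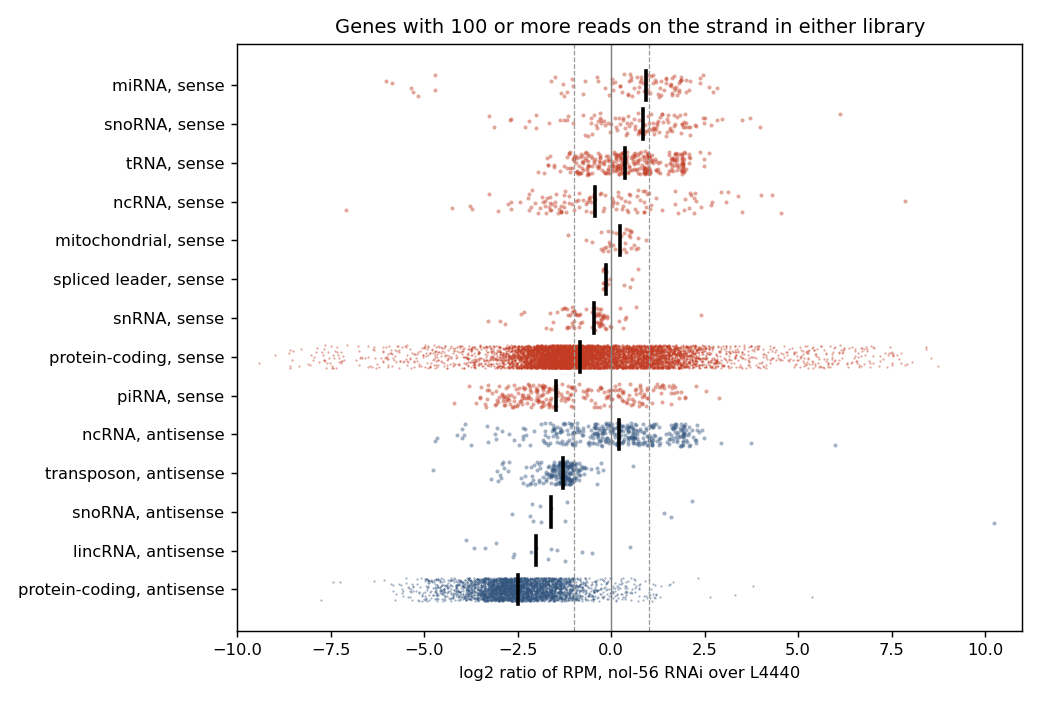
Log2 ratio of nol-56 RNAi over L4440 for each gene with 100 or more reads on the strand in either library, by class and strand (points), with the median of the class (black bar) and 2-fold lines (dashed). The miRNA and snoRNA medians lie at 0.94 and 0.86, and the protein-coding antisense median at -2.50.

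Of 94 miRNA genes with 100 or more sense reads, 43 were at least 2-fold higher and 15 at least 2-fold lower in nol-56 RNAi, against 18.7% and 42.6% of all sense entries. Their median log2 ratio was 0.94, and 0.14 per sense miRNA read. The other 130 miRNA genes in the files did not reach 100 reads. A few genes carried much of the class, and the top 5 held 56.4% of miRNA reads in nol-56 RNAi and 49.5% in L4440.

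The largest difference in level among miRNA genes belonged to mir-58a, of the bantam family, with 216334 reads in nol-56 RNAi and 43352 in L4440, or 38422 and 11410 RPM, a ratio of 3.37 (3.33 to 3.40). The muscle miRNA mir-1 followed, with 136657 reads in nol-56 RNAi and 26133 in L4440, a ratio of 3.53 (3.48 to 3.58). In L4440 the leading miRNA was mir-71, which promotes longevity, and it stayed within 2-fold, at 24916 RPM in nol-56 RNAi and 21212 RPM in L4440. Also higher were mir-228 at a ratio of 3.67 (3.54 to 3.80), mir-57 at 3.22 (3.09 to 3.35) and mir-59 at 3.00 (2.87 to 3.12), whereas mir-238 reached 1.94 (1.90 to 1.99) and mir-80 1.37 (1.35 to 1.40).

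By ratio, the highest miRNA genes were of low or middle level. mir-67 had 168 reads in nol-56 RNAi and 16 in L4440, a ratio of 7.09 (4.24 to 12.7). mir-1820 had 1581 and 161 reads, a ratio of 6.63 (5.63 to 7.84), mir-79 550 and 60 reads, a ratio of 6.19 (4.73 to 8.22), and mir-239a 1710 and 209 reads, a ratio of 5.52 (4.78 to 6.41), each given for nol-56 RNAi and then L4440. All 4 stayed above 2-fold per sense miRNA read.

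The heterochronic miRNAs, which time larval cell fates, were higher in nol-56 RNAi in 5 of 6 genes. Among all sense entries 18.7% were higher and among miRNA genes 45.7%, and sense miRNA reads as a class had a ratio of 1.75. lin-4, which represses lin-14, had 8285 reads in nol-56 RNAi and 1076 in L4440, or 1471 and 283 RPM, a ratio of 5.20 (4.88 to 5.54). Its family member mir-237 had 3376 and 815 reads, a ratio of 2.80 (2.59 to 3.02). In the let-7 family, mir-84 reached 3.56 (3.35 to 3.78), mir-48 3.33 (3.26 to 3.41) and mir-241 2.27 (2.05 to 2.51). let-7 itself, which drives the larval to adult switch, had 298 RPM in nol-56 RNAi and 292 RPM in L4440, a ratio of 1.02 (0.945 to 1.10). The other knockdowns also lay above L4440 in the family sums. The let-7 family had 10014.5 RPM in nol-56 RNAi, 8312 RPM in fib-1 RNAi, 5725 RPM in mtr-4 RNAi and 3230 RPM in L4440. In that order the lin-4 family had 2071, 1023, 748 and 498 RPM.

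The mir-35 family, made in the female germline and embryo and required for embryonic development, lay far lower. All 8 members were at least 2-fold lower in nol-56 RNAi, with a median log2 ratio of -5.22. mir-35 had 266 reads in nol-56 RNAi and 11767 in L4440, or 47.2 and 3097 RPM, a ratio of 0.0153 (0.0135 to 0.0172). mir-39 had 289 and 11322 reads, a ratio of 0.0172 (0.0153 to 0.0194), and mir-37 344 and 9550 reads, a ratio of 0.0243 (0.0218 to 0.0271). mir-36, mir-38, mir-40 and mir-41 lay between 0.0256 and 0.0383. These 7 genes sit in 1 cluster on chromosome II (11537608 to 11538404, plus strand), and mir-42, which lies apart from it beside mir-44, had the smallest difference, 0.440 (0.346 to 0.558). With size factors mir-42 came to 1.03, and the 7 clustered genes stayed at least 2-fold lower. The list of oocyte and eggshell genes also lay lower, at a summed sense level of 866 RPM in nol-56 RNAi and 8660 RPM in L4440, and its part in the mir-35 family result was not tested.

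The other families differed within themselves. The 4 members of the mir-64 family, clustered on chromosome III (2172452 to 2173206), had ratios of 3.11 (3.06 to 3.15) for mir-65, 2.75 (2.70 to 2.80) for mir-64, 2.52 (2.48 to 2.57) for mir-66 and 1.98 (1.83 to 2.16) for mir-229. In the bantam family, mir-81 and mir-82 lay at 1.42 (1.37 to 1.47) and 0.792 (0.778 to 0.806) beside mir-58a and mir-80. In the mir-51 family, mir-52 at 2.42 (2.30 to 2.55) and mir-54 at 2.17 (2.09 to 2.26) were higher, whereas mir-51 had 1654 RPM in nol-56 RNAi and 2662 RPM in L4440, a ratio of 0.622 (0.604 to 0.639). Members that share a cluster also differed: mir-54, mir-55 and mir-56 on chromosome X lay at 2.17, 1.18 and 0.952, and mir-61 at 0.412 (0.391 to 0.433) beside mir-250 at 1.45 (1.30 to 1.61). mir-45 and mir-44 lay at 1.49 and 1.41, and mir-72, mir-74 and mir-73 at 1.67, 1.64 and 0.896. The medians of the mir-51, bantam, mir-44 and mir-72 families were above 1 here and below 1 per sense miRNA read.

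Some miRNA genes have an ncRNA gene annotated across them on the other strand. For 14 miRNA genes, this ncRNA gene held antisense reads in step with the miRNA in all 4 libraries, with 1.98 sense miRNA reads per such read at the median (range 1.52 to 2.50). Opposite mir-1, the ncRNA T09B4.14 held 67390 antisense reads in nol-56 RNAi and 13291 in L4440. Its ratio, 3.42 (3.36 to 3.49), was close to that of mir-1. A miRNA has separate entries for its hairpin and its arms, summed here, and whether a read was counted for 1 overlapping entry or for each was not tested, so levels are compared between libraries and not between miRNAs with and without such partners.

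**Figure D3:**
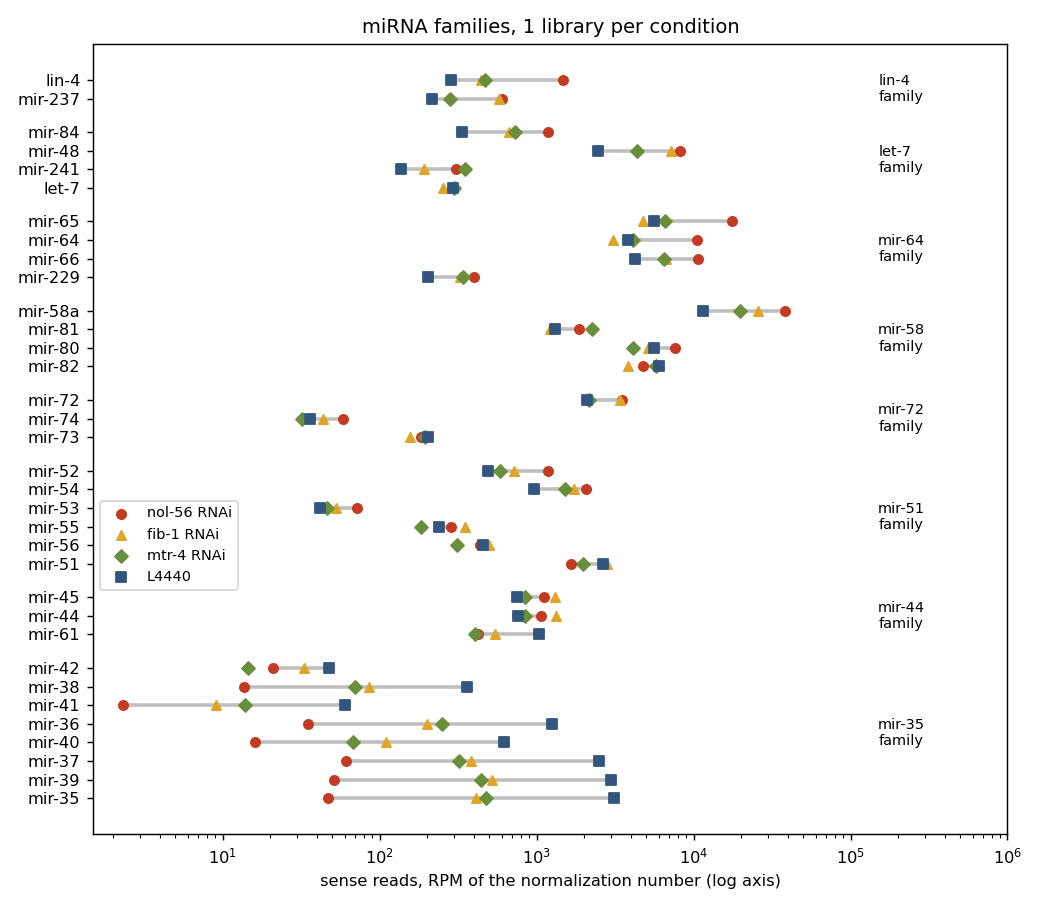
Sense reads on the members of 8 miRNA families with 100 or more reads, in RPM of the normalization number on a log axis, with 1 marker per library and a grey bar joining nol-56 RNAi and L4440. Genes of the lin-4 and let-7 families other than let-7 lie to the right in nol-56 RNAi (red circles), and all 8 mir-35 family genes to the left of L4440 (blue squares), down to 2.31 RPM for mir-41.

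Of the snoRNA genes with 100 or more sense reads, among 345 in the files, 54 (45.4%) were at least 2-fold higher in nol-56 RNAi, 14 (11.8%) at least 2-fold lower and 51 between. Among all sense entries 18.7% were higher and 42.6% lower. The median log2 ratio of the snoRNA genes was 0.86 (0.06 per sense miRNA read). The reads are pieces of 18 to 30 nucleotides of longer RNAs, so they count fragments and not the full-length snoRNA. The highest level belonged to F30H5.4 (chromosome III, 502804 to 502889), with 51620 reads in nol-56 RNAi and 3070 in L4440, or 9168 and 808 RPM, a ratio of 11.4 (10.9 to 11.8). It alone held 16.2% of sense snoRNA reads in nol-56 RNAi.

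Other abundant snoRNA genes were higher by smaller ratios. C08D8.3 had 11425 reads in nol-56 RNAi and 1219 in L4440, a ratio of 6.33 (5.96 to 6.72), and E01A2.11, in an intron of akir-1, had 18542 and 2225 reads, a ratio of 5.62 (5.38 to 5.88). F47G4.9 reached 3.75 (3.62 to 3.87), Y74C9A.6 3.71 (3.57 to 3.87), C04G6.12 3.64 (3.50 to 3.79) and C46C2.8 2.02 (1.95 to 2.09). T26A8.6, the leading snoRNA gene in L4440, had 5137 RPM in nol-56 RNAi and 2666 RPM in L4440, a ratio of 1.93 (1.88 to 1.97).

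The highest ratios were those of K07C5.12, described with the nol-56 locus, W04D2.7, R151.13, F30H5.4 and F48A11.7. W04D2.7, in an intron of the innexin gene inx-11, had 2737 reads in nol-56 RNAi and 118 in L4440, a ratio of 15.7 (13.0 to 19). The ncRNA W04D2.14 on the opposite strand held 2755 and 140 antisense reads, nearly the same counts. Whether each read was counted for 1 annotation or for both was not tested. R151.13, in an intron of the ribosomal protein gene rpl-6, had 974 and 50 reads, a ratio of 13.2 (9.89 to 17.8), whereas its neighbour R151.12 in the same host gene had 190 and 131 reads, a ratio of 0.979 (0.779 to 1.23). These neighbours in 1 host gene thus lay on either side of 2-fold.

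A smaller group of snoRNA genes was lower. ZK185.9 had 431 reads in nol-56 RNAi and 2795 in L4440, a ratio of 0.104 (0.0938 to 0.115). F19H8.6 had 205 and 1218 reads, a ratio of 0.114 (0.0975 to 0.132), T09B9.10 lay at 0.153 (0.0956 to 0.235), and T06C12.16 had 389 and 1677 reads, a ratio of 0.157 (0.140 to 0.175). Y75B12B.12 lay at 0.203 (0.179 to 0.229) and ZK994.7 at 0.248 (0.234 to 0.264). H09I01.2, at 0.698 (0.671 to 0.727), had one of the larger losses of level but stayed within 2-fold.

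Position and length were not used in the choice of members. Of 67 in an intron of a protein-coding gene on the same strand, 33 were higher and 4 lower, with a median log2 ratio of 0.99, and of the 52 others 21 were higher and 10 lower, with a median of 0.75. The 60 shorter genes and the 59 longer ones had medians of 0.82 and 0.86. Of 35 with a gene annotated across them on the other strand 19 were higher and 5 lower, with a median of 1.13, and of the 84 others 35 were higher and 9 lower, with a median of 0.77. The files do not divide snoRNA genes into box C/D and box H/ACA, so the groups that NOL-56 does and does not bind could not be compared.

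**Figure D4:**
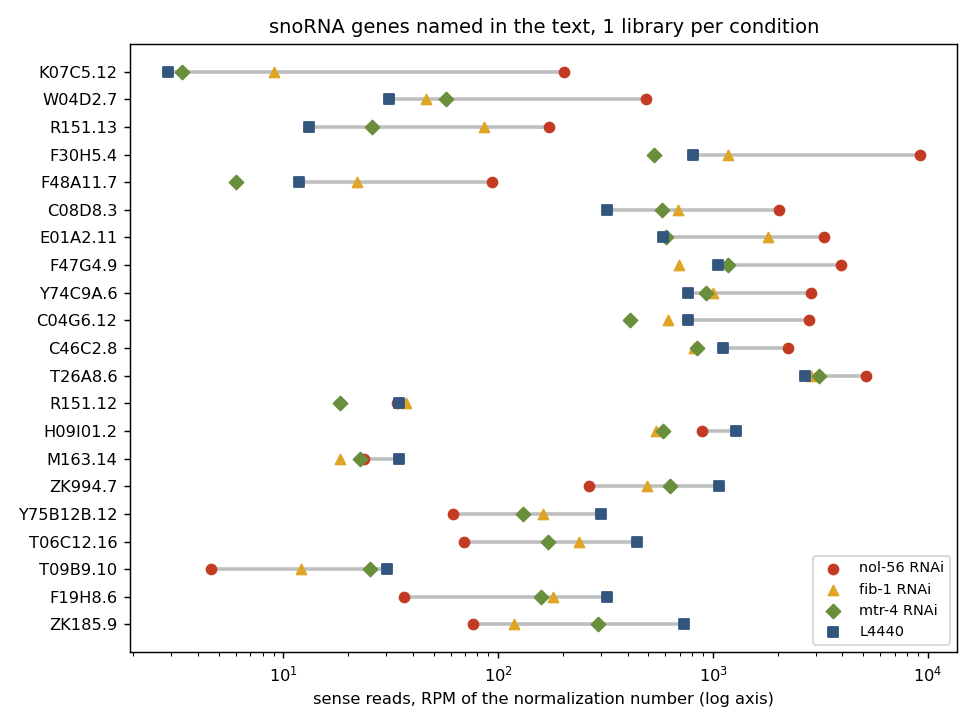
Sense reads on 21 snoRNA genes named in the text, ordered by their ratio, in RPM of the normalization number on a log axis, with 1 marker per library and a grey bar joining nol-56 RNAi and L4440. F30H5.4 stands at 9168 RPM in nol-56 RNAi, above its level in fib-1 RNAi, mtr-4 RNAi and L4440, and ZK185.9 lies lowest by ratio, at 0.104.

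Antisense snoRNA reads were 5525 RPM in nol-56 RNAi and 2997 RPM in L4440, but the higher level rested on few genes. Without the 5 genes with the most reads the class ratio was 0.342, and of the 13 genes with 100 or more antisense reads 4 were higher (2.97% of all antisense entries were) and 9 lower. K07C10.2 had 12591 antisense reads in nol-56 RNAi and 3208 in L4440, a ratio of 2.65 (2.55 to 2.75). The ncRNA K07C10.6 lies across it on the opposite strand and had 12481 sense reads in nol-56 RNAi and 3272 in L4440. B0334.12 had 12045 and 2695 antisense reads, a ratio of 3.02 (2.89 to 3.15), and only 3 and 0 sense reads. The next genes by level were lower: C17H12.36 at 0.439 (0.399 to 0.483), which came to 1.03 with size factors, and Y73F8A.1175 at 0.325 (0.295 to 0.358).

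The third gene was K07C5.12, a snoRNA gene in an intron of nol-56 itself (chromosome V, 10351733 to 10351862). It had 3572 antisense reads in nol-56 RNAi and 2 in L4440, a ratio of 1205 (333 to 9956), and 1144 and 11 sense reads, a ratio of 70.2 (39.1 to 141). It had 1 antisense read each in fib-1 RNAi and mtr-4 RNAi. The ncRNA K07C5.17, which overlaps it on the other strand, likewise had 685 sense reads in nol-56 RNAi and 2 in L4440. The 3 other snoRNA genes in introns of nol-56, K07C5.18, K07C5.10 and K07C5.11, had 0, 0 and 4 antisense reads in nol-56 RNAi and 0, 1 and 0 in L4440. Their sense reads were 48, 35 and 17 in nol-56 RNAi and 63, 25 and 12 in L4440. The reads thus stood at 1 of the 4 intronic snoRNA genes, on both strands. They can be reads of the double-stranded trigger, as for nol-56 itself, which was not tested. K07C5.12 and K07C5.17 were nevertheless kept in the counts of higher snoRNA and ncRNA genes. The protein-coding genes on each side had no such gain in antisense reads: sluh-7 had 157 reads in nol-56 RNAi and 227 in L4440, and K07C5.3 had 91 and 321.

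Sense snRNA reads, which come from the spliceosomal RNAs and genes annotated with them, were higher mainly in 1 gene. M163.13 (chromosome X, 14476867 to 14476946) had 306108 reads in nol-56 RNAi and 39433 in L4440, a ratio of 5.24 (5.18 to 5.29), and held 84.6% of the class in nol-56 RNAi and 36.7% in L4440. Without the 5 genes with the most reads the class ratio was 0.587 (0.580 to 0.595). Of 79 snRNA genes 1 (1.27%) was at least 2-fold higher and 23 (29.1%) at least 2-fold lower, beside 18.7% and 42.6% of all sense entries. Their median log2 ratio was -0.45 (0.78 with size factors). Several snRNA genes share a name and have nearly equal counts, such as those named C47F8.9 and R07E5.16. Copies can share reads, so these are not counts of independent genes. The next largest gains in level were F32B5.9 at a ratio of 1.59 (1.41 to 1.80) and W07G1.24 at 1.29 (1.16 to 1.45). The largest falls were F56H6.15 at 0.328 (0.313 to 0.344), Y57G11C.35 at 0.321 (0.303 to 0.340) and F42C5.12 at 0.140 (0.126 to 0.155).

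M163.13 has neighbours of like size that were also higher, by smaller ratios. M163.15 and M163.12, filed as ncRNA, lie within 756 nucleotides with it on the same strand and are 72 and 78 nucleotides long, beside 80 for M163.13. M163.15 had 40665 reads in nol-56 RNAi and 8321 in L4440, a ratio of 3.30 (3.22 to 3.38), and M163.12 had 37860 and 7776 reads, a ratio of 3.29 (3.21 to 3.37). The snoRNA gene M163.14, 841 nucleotides further on, had 134 reads in nol-56 RNAi and 131 in L4440, a ratio of 0.690 (0.539 to 0.885).

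Similar short ncRNA genes, chosen after their values were seen, led the ncRNA class. ZK265.11 (chromosome I, 76 nucleotides) had 98646 sense reads in nol-56 RNAi and 15590 in L4440, a ratio of 4.27 (4.2 to 4.34). CD4.18 had 67963 and 4363 reads, a ratio of 10.5 (10.2 to 10.8), and CD4.19 20914 and 2170 reads, a ratio of 6.50 (6.22 to 6.80), whereas CD4.17 nearby had 6962 and 7046 reads, a ratio of 0.667 (0.645 to 0.689). F08G2.13 and F08G2.12, within 506 nucleotides on chromosome II, reached 7.64 (7.36 to 7.94) and 4.76 (4.59 to 4.93), and C15H11.12 reached 16.0 (14.7 to 17.3). On the lower side stood the signal recognition particle RNA genes: srpr-2.2 had 21856 reads in nol-56 RNAi and 46617 in L4440, a ratio of 0.316 (0.311 to 0.322), and srpr-2.1 lay at 0.397 (0.387 to 0.407). Over all 128 ncRNA genes with 100 or more sense reads, 29 (22.7%) were higher and 47 (36.7%) lower, near the 18.7% and 42.6% of all sense entries. Their median log2 ratio was -0.44 (0.79 with size factors).

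Of 296 tRNA genes, 83 (28%) were at least 2-fold higher in nol-56 RNAi and 20 (6.76%) at least 2-fold lower, beside 18.7% and 42.6% of all sense entries. Their median log2 ratio was 0.37 (-0.43 per sense miRNA read). The leading 22 genes had almost equal counts, from 15712 to 16984 reads in nol-56 RNAi and from 2864 to 3076 in L4440, and their ratios spanned only 3.65 to 3.89. Among them were Y22D7AL.t4, rte-5 and M01E10.t1. Copies of 1 tRNA can share reads, so these genes cannot be told apart, and together they held 67.7% of tRNA reads in nol-56 RNAi and 44.4% in L4440. The remaining tRNA genes together had a ratio of 1.43 (1.42 to 1.45). C36C9.t2, F35H8.t1 and F38E9.t2, the largest falls in level, lay at 0.288, 0.344 and 0.259.

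Antisense ncRNA reads, at 13.7% of the normalization number in nol-56 RNAi and 7.80% in L4440, came mainly from ncRNA genes that lie across another small RNA gene. Of 345 ncRNA genes with 100 or more antisense reads, 278 lie opposite a tRNA, miRNA, snoRNA, snRNA or spliced leader gene, of which 91 were higher and 27 lower, and these together had a ratio of 2.06 (2.05 to 2.07). The 204 opposite tRNA genes held most of the reads, 482681 in nol-56 RNAi and 111948 in L4440, a ratio of 2.91 (2.89 to 2.93), whereas the 32 opposite snRNA genes had a ratio of 0.524 (0.516 to 0.533), with none higher and 12 lower. The 67 others had 4357 RPM in nol-56 RNAi and 11220 RPM in L4440, a ratio of 0.388 (0.382 to 0.395), with 7 higher and 47 lower. F52E10.7 and C39D10.17, opposite tRNA genes, lay at 4.18 (4.02 to 4.34) and 4.24 (4.08 to 4.41). The largest falls were Y71A12B.10 at 0.222 (0.212 to 0.232), F56H6.17, opposite the snRNA gene F56H6.15, at 0.345 (0.329 to 0.361), and H09I01.4 at 0.586 (0.566 to 0.606). In this class siRNAs and reads of the opposite gene cannot be told apart.

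Spliced leader RNAs, which donate the leader that is joined to many worm mRNAs, stayed near their L4440 level: 18 genes had log2 ratios from -0.22 to 0.72 and none passed 2-fold. Among 36 mitochondrial genes 1 was at least 2-fold lower, MTCE.13, a tRNA gene, with 13513 reads in nol-56 RNAi and 20389 in L4440, a ratio of 0.447 (0.438 to 0.457) that came to 1.05 with size factors. The tRNA gene MTCE.9 lay at 0.632 (0.625 to 0.640), and the mitochondrial rRNA genes MTCE.7 and MTCE.33 at 1.66 (1.64 to 1.69) and 1.20 (1.19 to 1.21).

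Of 240 piRNA genes with 100 or more reads, of 15365 in the files, 26 (10.8%) were at least 2-fold higher in nol-56 RNAi and 142 (59.2%) at least 2-fold lower. Among all sense entries these shares were 18.7% and 42.6%. All 240 lie on chromosome IV. The median log2 ratio was -1.47, beside -0.74 over all sense entries. Single piRNA genes went both ways. Among those with the largest differences in level, 21ur-378 had 2274 reads in nol-56 RNAi and 7173 in L4440, a ratio of 0.214 (0.204 to 0.224), 21ur-3085 1439 and 6580 reads, a ratio of 0.148 (0.139 to 0.156), and 21ur-4375 3843 and 6408 reads, a ratio of 0.405 (0.389 to 0.421). On the other side, 21ur-5980 had 6503 reads in nol-56 RNAi and 1391 in L4440, a ratio of 3.16 (2.98 to 3.35), 21ur-1278 6996 and 1850 reads, a ratio of 2.55 (2.42 to 2.69), and 21ur-7999 2043 and 350 reads, a ratio of 3.94 (3.52 to 4.43). The leading piRNA was 21ur-1278 in nol-56 RNAi and 21ur-378 in L4440.

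Antisense reads, the strand of the siRNAs, were lower in most genes. Of 3621 protein-coding genes with 100 or more antisense reads, 3340 were at least 2-fold lower in nol-56 RNAi and 23 at least 2-fold higher, with a median log2 ratio of -2.50 (-1.27 with size factors). Among the 724 genes with the highest mean level, 69.9 RPM or more and so clear of the read minimum, 86.2% were at least 2-fold lower, with a median of -1.81. In genes near the minimum, which passed it through L4440, the minimum itself limits the ratio. The medians were alike on all chromosomes, from -2.57 to -2.45. In the 2626 protein-coding genes with 100 or more reads on each strand, the antisense ratio was below the sense ratio in 2322. Across those genes the 2 log2 ratios, which share both libraries, had Pearson's r = 0.25, a description only since genes are not replicates.

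The largest falls in level were among the most abundant siRNA targets. C47G2.8 had 6460 antisense reads in nol-56 RNAi and 16011 in L4440, or 1147 and 4214 RPM, a ratio of 0.272 (0.265 to 0.280). B0250.8 lay at 0.270 (0.262 to 0.278), bath-45, a BATH domain gene, at 0.344 (0.335 to 0.353), W09C5.12 at 0.223 (0.215 to 0.231) and fkb-8, of the FK506-binding proteins, at 0.414 (0.403 to 0.424). bath-20 lay at 0.515 (0.504 to 0.526), T09F5.12 at 0.248 (0.239 to 0.257), sqst-1, an autophagy receptor gene, at 0.331 (0.320 to 0.343) and F15D4.5 at 0.383 (0.371 to 0.395). got-1.2, an aspartate aminotransferase gene, had 1265 antisense reads in nol-56 RNAi and 8453 in L4440, a ratio of 0.101 (0.0951 to 0.107).

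The lowest ratios rested on few reads in nol-56 RNAi. F21G4.5 had 1 antisense read in nol-56 RNAi and 147 in L4440, a ratio of 0.00459 (0.000115 to 0.0260), and the cyclin B gene cyb-2.1 had 1 and 103 reads, a ratio of 0.00655 (0.000164 to 0.0373). K03D3.2 had 1 and 118 reads, Y15E3A.3 2 and 109 reads, and C17F4.8 3 and 137 reads, in the same order of libraries.

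Few protein-coding genes had more antisense reads. Y47H10A.5 had 16638 in nol-56 RNAi and 5334 in L4440, a ratio of 2.11 (2.04 to 2.17), and was the leading target in nol-56 RNAi. pkd-2, the polycystin channel of male sensory neurons, had 1621 and 346 reads, a ratio of 3.16 (2.81 to 3.56). gur-4, a gustatory receptor family gene, had 489 and 8 reads, a ratio of 41.3 (20.8 to 96.1), and it overlaps cpg-7 on the opposite strand, which had 249 sense reads in nol-56 RNAi and 3 in L4440, so the source of these reads cannot be told apart. Y38E10A.14 had 666 and 45 reads, a ratio of 9.99 (7.38 to 13.8), and nkb-3, a sodium pump subunit gene, 143 and 7 reads, a ratio of 13.8 (6.52 to 34.9). VY10G11R.1 lay at 2.51 (2.28 to 2.78), fbxa-224 at 2.32 (1.99 to 2.71), W05H9.3 at 6.26 (3.35 to 12.9) and T08B1.1 at 5.01 (3.26 to 8.02). nhr-229, a nuclear hormone receptor gene, at 1.56 (1.46 to 1.66), and bgnt-1.4, at 1.57 (1.44 to 1.72), stayed within 2-fold.

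Genes of the siRNA pathway were mostly lower on both strands. Among all entries, 42.6% of sense and 85.9% of antisense entries were lower. Of 18 Argonaute genes with 100 or more sense reads, 11 were at least 2-fold lower, 1 higher and 6 between, with a median log2 ratio of -1.32, and all 12 with 100 or more antisense reads were lower, with a median of -2.76, beside -0.74 and -2.33 over all entries. With size factors the sense median was -0.09, with 5 lower and 4 higher. nrde-3, the nuclear somatic Argonaute, had 823 sense reads in nol-56 RNAi and 5025 in L4440, a ratio of 0.111 (0.103 to 0.119), and wago-1, a germline Argonaute, 648 and 2768, a ratio of 0.158 (0.145 to 0.172). The falls against L4440 were shared by the other knockdowns. nrde-3 had 146 RPM in nol-56 RNAi, 139 RPM in fib-1 RNAi, 125 RPM in mtr-4 RNAi and 1323 RPM in L4440. The summed Argonaute sense level was 1467, 1645, 1805 and 5331 RPM in the same order. wago-10 had 171 sense reads in nol-56 RNAi and 15 in L4440, a ratio of 7.69 (4.54 to 14.1). Antisense, csr-1 lay at 0.113 (0.0965 to 0.131), hrde-1, the nuclear germline Argonaute, at 0.143 (0.129 to 0.159), wago-4 at 0.150 (0.131 to 0.170), nrde-3 at 0.380 (0.354 to 0.408) and ppw-2 at 0.426 (0.384 to 0.472). Of 19 other RNAi factor genes with 100 or more sense reads 16 were lower, with a median of -1.68, and 3 with size factors. Sense reads on these genes are fragments of 18 to 30 nucleotides and were not shown to track mRNA.

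Antisense reads on transposons were at least 2-fold lower in 178 of 209 (85.2%, near the 85.9% of all antisense entries) and at least 2-fold higher in none, with a median log2 ratio of -1.29 (-0.06 with size factors). T27C5.9 had 6978 antisense reads in nol-56 RNAi and 14032 in L4440, a ratio of 0.336 (0.326 to 0.345), T23B12.10 lay at 0.254 (0.239 to 0.269) and T05C3.3 at 0.456 (0.438 to 0.475), the last of which came to 1.07 with size factors. Y53G8AM.1 was the only one above its L4440 level, with 1238 and 554 reads, a ratio of 1.51 (1.36 to 1.67). Of 15 lincRNA genes with 100 or more antisense reads, 12 (80%) were lower, no more than among all entries. linc-29 had 5123 reads in nol-56 RNAi and 13949 in L4440, a ratio of 0.248 (0.240 to 0.256), linc-7 1835 and 10462, a ratio of 0.118 (0.113 to 0.124), and linc-63 1289 and 8922, a ratio of 0.0975 (0.0919 to 0.103). linc-22 alone was above its L4440 level, at 1.42 (1.16 to 1.74).

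Sense reads on protein-coding genes, which may be mRNA fragments, differed by tissue list. Of 8031 genes 1455 (18.1%) were at least 2-fold higher in nol-56 RNAi and 3584 (44.6%) at least 2-fold lower, near the 18.7% and 42.6% of all sense entries. Their median log2 ratio was -0.82 (0.41 with size factors). Among chromosomes the X stood apart, with a median of 0.28 over 930 genes, beside -1.07 to -0.41 on the autosomes.

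Genes of the cuticle were higher as a list, whose 168 genes together had 540430 sense reads in nol-56 RNAi and 147941 in L4440, a ratio of 2.47 (2.45 to 2.48). The background for this list and for the muscle genes was 18.7% of all sense entries higher and 42.6% lower. Of 107 hypodermis and cuticle genes with 100 or more reads, 94 were at least 2-fold higher and 1 lower, with a median log2 ratio of 3.69, but 67 of them reached 100 reads only in nol-56 RNAi, so that the read minimum itself favoured a high median. The collagen gene col-124 had 42509 reads in nol-56 RNAi and 11389 in L4440, a ratio of 2.52 (2.47 to 2.57), col-80 lay at 3.21 (3.13 to 3.31) and col-81 at 12.7 (12.0 to 13.5). bli-1 and bli-2, collagens of the adult cuticle struts, had 558 and 391 reads in nol-56 RNAi and 1 read each in L4440, ratios of 377 (67.3 to 14899) and 264 (47.1 to 10448). Of 8 muscle genes 4 were higher and none lower, among them the myosin gene myo-2 at 3.20 (2.91 to 3.52) and the paramyosin gene unc-15 at 2.17 (2.09 to 2.25). The myosin gene unc-54 at 1.86 (1.82 to 1.90) and the tropomyosin gene lev-11 at 1.28 (1.22 to 1.34) stayed within 2-fold. With size factors all 8 muscle genes were at least 2-fold higher. Outside the muscle list, the nuclear anchorage gene anc-1 lay at 1.94 (1.91 to 1.98).

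Lists of the germline were lower, as were most yolk genes, beside 42.6% of all sense entries. All 12 oocyte and eggshell genes were at least 2-fold lower, with a median log2 ratio of -3.65. oma-2, needed for oocyte maturation, had 43 reads in nol-56 RNAi and 748 in L4440, a ratio of 0.0388 (0.0278 to 0.0528), the eggshell gene cpg-2 lay at 0.0556 (0.0499 to 0.0618), cbd-1 at 0.0887 (0.0834 to 0.0943) and perm-2 at 0.426 (0.394 to 0.460). Of 11 germline genes 8 were lower, with a median of -1.81, from glp-1, the germline Notch receptor, at 0.135 (0.119 to 0.153) to syp-1, of the synaptonemal complex, at 0.744 (0.607 to 0.912). Of 36 sperm genes 32 were lower, with a median of -1.73. Of 9 intestine genes 5 were lower, 1 higher and 3 between. The higher one was elt-2, a GATA factor of the intestine, at 2.72 (1.89 to 4.01) from 149 reads in nol-56 RNAi and 37 in L4440, and ges-1 lay at 0.806 and asp-1 at 0.562. The 6 others are vitellogenin genes, which encode yolk protein made in the intestine of adult hermaphrodites, and lay between 0.274 (0.269 to 0.279) for vit-4 and 0.545 (0.540 to 0.551) for vit-6, which did not pass 2-fold, and vit-2, at 0.460 (0.454 to 0.465), came to 1.08 with size factors. Of 71 histone genes 68 were lower, with a median of -3.65. Of the 71, 34 reached the read minimum only in L4440, so the minimum itself favoured a low median. Several histone genes share a name and have nearly equal counts. Those named his-51 had 72, 64, 71 and 73 reads in nol-56 RNAi and 2209, 2188, 2136 and 2134 in L4440. Copies can share reads, so the histone counts are not counts of independent genes. The lower histone level was shared by the other knockdowns. The summed sense level of the list was 4094 RPM in nol-56 RNAi, 5695 RPM in fib-1 RNAi, 5011 RPM in mtr-4 RNAi and 37324 RPM in L4440. By contrast, 70 of 77 cytosolic ribosomal protein genes stayed within 2-fold of L4440, with a median of -0.08. With size factors 11 oocyte and eggshell and 62 histone genes stayed at least 2-fold lower, but only 1 germline gene, 4 sperm genes and no intestine gene did, and 52 ribosomal protein genes were at least 2-fold higher, with a median of 1.15.

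No defining gene of the oocyte, germline, sperm, intestine or muscle lists was at 0 sense reads in either library. In fib-1 RNAi and mtr-4 RNAi, the summed oocyte and eggshell level was 2709 and 2361 RPM, between those of nol-56 RNAi and L4440. These lists moved with the miRNA families and siRNA classes above, and their part in those results was not tested.

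Among nucleolar proteins, the partner fib-1 had 598 sense reads in nol-56 RNAi and 1239 in L4440, a ratio of 0.326 (0.295 to 0.359). All 3 measured box C/D snoRNP protein genes other than nol-56 were at least 2-fold lower in sense reads, with a median log2 ratio of -1.74, as were 2 of 3 box H/ACA genes, with a median of -1.32, beside 42.6% of all sense entries. With size factors 1 box C/D gene and 0 box H/ACA genes stayed lower. The lower levels were shared by the other knockdowns: nol-58 had 146 RPM in nol-56 RNAi, 167 RPM in fib-1 RNAi, 164 RPM in mtr-4 RNAi and 486 RPM in L4440. In that order snu-13 had 40.5, 64.7, 71.5 and 234 RPM, and the summed box H/ACA level was 237, 230, 222 and 581 RPM. Of 19 ribosome biogenesis genes 5 were lower and 14 between, with a median of -0.73, close to the median of all sense entries and 0.50 with size factors.

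Set directly against the other knockdown libraries, nol-56 RNAi stood apart in some classes and not in others. Sense snoRNA reads were 56652 RPM in nol-56 RNAi, 27110 RPM in fib-1 RNAi, 21263 RPM in mtr-4 RNAi and 25087 RPM in L4440, which gave ratios of 2.09 (2.08 to 2.10) over fib-1 RNAi and 2.66 (2.65 to 2.68) over mtr-4 RNAi. F30H5.4 had 51620 reads in nol-56 RNAi, 5479 in fib-1 RNAi and 3177 in mtr-4 RNAi, a ratio of 7.78 over fib-1 RNAi and 17.2 over mtr-4 RNAi. Sense miRNA reads were also higher, at 1.40 (1.40 to 1.41) over fib-1 RNAi and 1.47 (1.46 to 1.47) over mtr-4 RNAi, with mir-65 at 3.66 and 2.65. Sense tRNA reads were below those of fib-1 RNAi, at 0.937 (0.933 to 0.94), and above those of mtr-4 RNAi, at 1.79 (1.78 to 1.80). The snRNA gene M163.13 had 231963 reads in fib-1 RNAi, and the ratio of nol-56 RNAi over it was 1.09. The denominators hold antisense reads of each library's own target: 338593 in nol-56 RNAi, 472930 in fib-1 RNAi and 977851 in mtr-4 RNAi. How much of the snoRNA, miRNA and tRNA ratios between the knockdowns this makes up was not tested.

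The mir-35 family summed to 248 RPM in nol-56 RNAi, 1755 RPM in fib-1 RNAi, 1655 RPM in mtr-4 RNAi and 10934 RPM in L4440, and its ratio over fib-1 RNAi was 0.141 (0.133 to 0.149). Antisense protein-coding reads were lower than in fib-1 RNAi, at 0.40 (0.399 to 0.401), and lower than in mtr-4 RNAi, at 0.319 (0.318 to 0.320), but those libraries hold the antisense reads of their own targets, whereas nol-56 was left out. Without fib-1 and mtr-4 the ratios were 0.564 (0.563 to 0.566) over fib-1 RNAi and 0.512 (0.511 to 0.513) over mtr-4 RNAi, and 0.539 and 0.455 with all 3 targets also out of the denominator, alternatives chosen after seeing the data. Antisense snRNA reads set mtr-4 RNAi apart rather than nol-56 RNAi. They were 304 in nol-56 RNAi and 2850 in mtr-4 RNAi, a ratio of 0.113 (0.0999 to 0.127). The ratio of nol-56 RNAi was 1.08 (0.906 to 1.28) over fib-1 RNAi and 0.83 (0.70 to 0.986) over L4440. That of mtr-4 RNAi over L4440 was 7.36 (6.46 to 8.42). Since fib-1 RNAi, mtr-4 RNAi and nol-56 RNAi share the single L4440 library, their ratios to it are not independent.

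**Figure D5:**
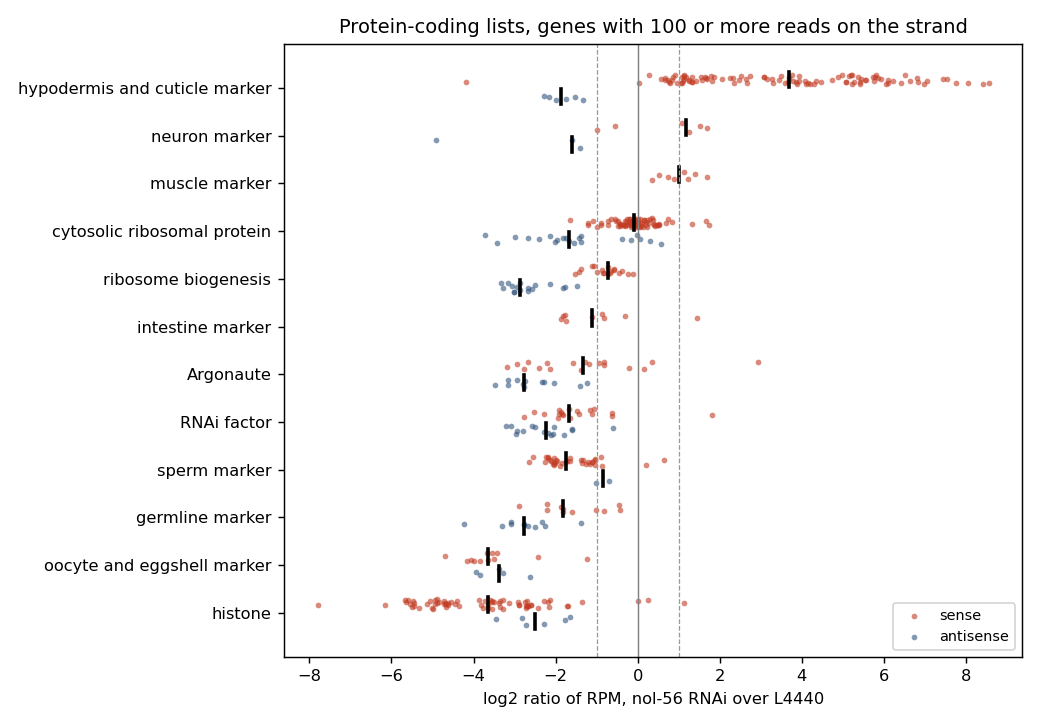
Log2 ratio of nol-56 RNAi over L4440 for the genes of 12 protein-coding lists with 100 or more reads on the strand, sense (red) and antisense (blue), with the median of each list and strand (black bar) and 2-fold lines (dashed). The hypodermis and cuticle list has its sense median at 3.69, and the oocyte and eggshell and histone lists both at -3.65.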

How the data were processed

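Small RNA was treated with phosphatase and polynucleotide kinase before cloning, so capture did not depend on the 5′ phosphate, and reads of 18 to 30 nucleotides were kept (the labels give inserts up to 40). The counts were deposited by the authors as whole reads per transcript, sense and antisense, without normalization, after alignment with Bowtie2 (version not given in the sources used here) to WS243 transcripts and counting with custom scripts. Rows were summed per gene and class. The 3 rows per library that named no gene were left out. They held at most 0.00145% of reads, and empty count cells (1 or 2 per library) were read as 0. Positions came from Ensembl release 115 (WBcel235), matched by gene ID for 44848 of 45506 genes. The files name no build.

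Ratios, exact (Clopper-Pearson) conditional 95% intervals and counts were computed in Python 3.11.15 with scipy 1.17.1, and the script was tested on simulated data. Named genes were those with the largest rises and falls in level or ratio per class, and members of fixed lists. The members and lists were chosen with earlier results of these data known. No count model was fitted, since there was 1 library per condition. The denominator, the read minimum, a pseudocount and the leading genes of each class were varied. Diet and stage differ between the labels (OP50, young adult) and the methods (RNAi bacteria, L3), and were not settled. No sequences are printed, since none was at hand. Files of the series' 13 other libraries were not used here.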

Additional observations from a re-analysis of the deposited data

How the results depend on the processing

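No paired analysis was possible because each condition had 1 library, and for the same reason no library could be left out. Of 17 class ratios, 182 named genes and 4 counts, none of the class ratios or counts changed its side or moved by over 1.5 times with all counted reads, without antisense nol-56 reads or without tRNA reads as the denominator. Per sense miRNA read, the mitochondrial ratio was 0.632 and the antisense spliced leader ratio 0.572, and the sense and antisense counts of higher genes were 821 and 53. With size factors the ratios came to 1.52 for sense lincRNA, 1.33 for piRNA, 1.76 for sense protein-coding, 2.10 for sense spliced leader and 2.34 for antisense spliced leader reads, and the counts were 3511 higher and 1023 lower in sense and 339 higher and 2250 lower in antisense reads. Under them mir-42 (1.03), C17H12.36 (1.03), MTCE.13 (1.05), T05C3.3 (1.07), vit-2 (1.08), antisense sluh-7 (1.09) and unc-119 (1.17) changed direction, 30 named genes came within 2-fold and 27 moved past it. Per sense miRNA read 29 named genes came within 2-fold and 12 moved past it, and under each of the 3 other denominators 1 came within 2-fold, which is unc-119, and 4 moved past it. Without the 5 leading genes the class ratio was 0.587 for sense snRNA, 0.342 for antisense snoRNA and 1.30 for antisense spliced leader reads. With no read minimum, 6582 sense and 2573 antisense entries were higher and 10428 and 11037 lower. With a minimum of 200 reads, 1892 antisense entries were lower. The antisense protein-coding ratios over fib-1 RNAi and mtr-4 RNAi stayed below 1 without the targeted genes, an alternative chosen after seeing the data. The cause of these changes was not tested beyond the scaling itself. A pseudocount of 1 read and a minimum of 50 reads left all 4 counts within 1.5 times.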

Other observations

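C-type lectin genes, many of which are expressed in the intestine, were mixed in sense reads: of 43 with 100 or more reads, 18 were at least 2-fold higher in nol-56 RNAi and 10 lower, with a median log2 ratio of 0.73 (-0.07 per sense miRNA read). Among all sense entries 18.7% were higher and 42.6% lower. Of the 43 genes, 15 reached 100 reads only in nol-56 RNAi and 7 only in L4440, so the read minimum itself shaped these counts. F-box A genes were mixed as well, with 6 of 13 higher and 3 lower in sense reads. Of these 13, however, 8 reached 100 reads only in nol-56 RNAi and 4 only in L4440. In antisense reads 19 of 29 F-box A genes were lower and 1 higher, a smaller share lower than the 85.9% of all antisense entries. Neuron genes had 4 of 6 higher in sense reads and 1, unc-119, lower, at 0.499 (0.387 to 0.643), but 3 of the 6 reached 100 reads only in nol-56 RNAi. All 3 neuron genes with 100 or more antisense reads were lower. Among them was unc-10, a synaptic vesicle release gene, with 74 antisense reads in nol-56 RNAi and 1501 in L4440, a ratio of 0.0333 (0.0260 to 0.0420). Cytosolic ribosomal protein genes, near their L4440 level in sense reads, had 15 of 21 lower in antisense reads, again below the 85.9% of all antisense entries, with a median of -1.67 beside -2.33 over all of them.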
